A study of Mus musculus with 8 samples.

Results

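The genes described here are 8 epithelial keratins, the simple keratins Krt7, Krt8, Krt18 and Krt19 and the basal keratins Krt5, Krt14, Krt15 and Krt17, chosen by symbol from the 55401 genes of the count table of mouse lung cells. RNA was sequenced from 4 libraries of Scgb1a1cre; Cdh1F/F animals, called mutant, and 4 libraries of Scgb1a1cre; Cdh1F/+ animals, called control, all 10 days after tamoxifen. In both groups Cre was under the control of Scgb1a1, which club cells express strongly, and both carried at least 1 floxed allele of Cdh1, the gene of E-cadherin. The floxed allele of the controls could therefore also be recombined. Cells were depleted of immune and endothelial cells, selected on EPCAM and sorted on GFP according to the series, but the sorted fraction of each library was not stated. Nor was it stated whether each library was a separate animal, so the p-values rest on the spread between libraries, which may be technical.

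Keratins are the intermediate filament proteins of epithelial cells. They form obligate pairs of a type II chain (Krt5, Krt7 and Krt8 here) and a type I chain (Krt14, Krt15, Krt17, Krt18 and Krt19), and the filaments are anchored at desmosomes and hemidesmosomes by linker proteins. Simple keratins, above all Krt8 with Krt18, are made by single-layered epithelia, among them the luminal cells of the airway and the alveolar epithelium, and Krt8 is known in the lung as a marker of transitional cells during repair. Krt5 with Krt14 and Krt15 mark basal cells, the stem cells of the larger airways, and Krt17 is a keratin of stressed and wounded stratified epithelium.

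In the mutant libraries the RNA of Krt8, Krt18 and Krt19 stood at 2.02, 2.09 and 2.14 times its level in the controls, and that of Krt7 at 1.33 times. Of the 8 keratins, 6 had enough counts to be tested, and 4 of these 6 rose, with a threshold of 0.05 on the p adjusted (Benjamini-Hochberg, edgeR quasi-likelihood fit) over all 16964 genes tested, of which 5.45% were higher. The 4 that rose are the 4 simple keratins. The basal keratins were rare in both groups, and of the pair tested, Krt5 and Krt15, 0 passed the threshold, 0 had an unadjusted p under 0.05, and 0 were called by DESeq2 or limma-voom. Krt14 and Krt17 are not covered by these counts, and Krt17 had 47 counts over the mutant and 14 over the control libraries. The median log2 fold change was 0.72 over the 6 tested keratins and -0.01 over all genes tested.

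The promoters of the pair that forms the simple filament, of Krt7 and of Krt5 are shown because the first 3 genes rose and Krt5 did not pass the test. Each window runs from 250 bases before to 50 bases after the start that RefSeq annotates on GRCm38.p6, which differs from the gene boundary of the deposited table. Of the 8 keratins, 5 had an entry. Capitals mark matches on either strand to any of 6 motifs: the TATA box motif TATAAA, its variant motif ATAAAA, the Sp1 element GGGCGG, the NF-Y element CCAAT, the element TGANTCA known from AP-1, and the ETS factor core AGGAAG.
Krt8, minus strand, chr15:102004293-102004592: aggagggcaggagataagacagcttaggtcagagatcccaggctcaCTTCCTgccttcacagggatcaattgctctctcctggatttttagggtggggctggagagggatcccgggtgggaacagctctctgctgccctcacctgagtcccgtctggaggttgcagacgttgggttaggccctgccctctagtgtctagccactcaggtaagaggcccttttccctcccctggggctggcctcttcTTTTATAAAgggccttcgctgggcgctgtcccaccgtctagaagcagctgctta
Krt18, plus strand, chr15:102027966-102028265: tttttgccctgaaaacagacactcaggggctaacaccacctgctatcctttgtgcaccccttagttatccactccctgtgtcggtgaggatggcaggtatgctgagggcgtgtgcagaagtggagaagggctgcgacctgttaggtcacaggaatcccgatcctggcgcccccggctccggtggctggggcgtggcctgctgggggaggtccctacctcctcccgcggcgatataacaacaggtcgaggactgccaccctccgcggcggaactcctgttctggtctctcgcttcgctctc
Krt7, plus strand, chr15:101412153-101412452: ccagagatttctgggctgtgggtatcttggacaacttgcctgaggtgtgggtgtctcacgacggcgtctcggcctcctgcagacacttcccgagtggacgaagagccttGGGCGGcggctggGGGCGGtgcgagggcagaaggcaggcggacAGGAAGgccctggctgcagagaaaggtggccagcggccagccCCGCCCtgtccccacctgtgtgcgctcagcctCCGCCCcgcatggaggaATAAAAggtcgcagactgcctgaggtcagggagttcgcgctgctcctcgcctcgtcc
Krt5, minus strand, chr15:101712856-101713155: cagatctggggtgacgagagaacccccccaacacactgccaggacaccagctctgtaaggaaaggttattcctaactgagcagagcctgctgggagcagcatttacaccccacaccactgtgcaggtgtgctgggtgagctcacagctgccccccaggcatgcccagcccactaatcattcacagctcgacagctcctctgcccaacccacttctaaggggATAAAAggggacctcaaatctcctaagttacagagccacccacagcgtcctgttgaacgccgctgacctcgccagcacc
The Krt8 window held TATAAA on both strands and ATAAAA, which overlap each other as 1 stretch at the start site, and AGGAAG 204 bases before the start. The Krt7 window held GGGCGG at 4 places, AGGAAG 98 bases before the start and ATAAAA 7 bases before it. The Krt5 window held ATAAAA 29 bases before the start, and the Krt18 window held a match to 0 of the 6 motifs. Among 32851 mouse promoters of the same length, TATAAA was present in 13.6%, ATAAAA in 18.5%, GGGCGG in 35.7%, CCAAT in 37.4%, TGANTCA in 7.8% and AGGAAG in 35.4%. The 3 simple keratin windows thus shared no single motif of the 6. G and C made up 58.0% of the bases for Krt8, 61.3% for Krt18, 66.3% for Krt7 and 57.7% for Krt5, all above the median of 52.7% over those promoters. The window of Krt14, which also had an entry but is not shown, lay below that median at 48.3%.

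The libraries held between 15111663 and 21673654 counts. Levels are given as CPM, for which each count was divided by the TMM-adjusted size of its library. A count of 0 allows up to 3 counts, which equal 0.136 to 0.206 CPM depending on the library, with counting error alone considered. The controls differed from one another more than the mutants did. On the first principal component, which held 48.8% of the variance, controls 2 and 3 lay at -46.5 and -53.7, controls 1 and 4 at -4.1 and -9.8, and the mutants between 24.5 and 31.6. Cdh1 averaged 403 ± 6.07 CPM in mutant and 383 ± 44.6 CPM in control libraries (SD, n = 4 each), but this gene-wide count includes reads from exons that recombination leaves in place, so it checks no label. RNA of other lung cells was abundant: the alveolar type II gene Sftpc averaged 16493 ± 1947 CPM in mutant and 17829 ± 2988 CPM in control libraries, the endothelial gene Pecam1 841 ± 57.5 CPM in mutant and 1171 ± 182 CPM in control libraries, and the club cell gene Scgb1a1 4171 ± 307 CPM in mutant and 13382 ± 553 CPM in control libraries. In such bulk RNA fewer cells of a type and less RNA per cell cannot be told apart.

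Krt8 (ENSMUSG00000049382, GRCm38 chromosome 15, 101996698 to 102004482, minus strand) encodes the type II partner of Krt18 and Krt19 in simple epithelia. It stood at 556, 544, 469 and 448 CPM in mutant libraries 1 to 4 and at 198, 278, 246 and 276 CPM in control libraries 1 to 4. Every mutant library lay above every control, with mutant 1 highest and control 1 lowest. The same lack of overlap held for 9.75% of all genes tested, and that share applies to Krt18, Krt19 and Krt7 below as well. The means were 504 ± 53.8 CPM in mutant and 249 ± 37.3 CPM in control libraries (SD, n = 4 each), a log2 fold change of 1.02 ± 0.12 (SE) with adjusted p = 0.00121 in the edgeR test, and the 95% interval of the ratio ran from 1.67 to 2.45. Krt8 overlaps the predicted gene Gm36026 on the opposite strand over 271 bases, and strand was not used in the counting, but Gm36026 itself averaged 0.486 CPM in mutant and 0.280 CPM in control libraries.

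Krt18 (ENSMUSG00000023043, chromosome 15, 102028180 to 102032027, plus strand) encodes the type I chain that pairs with Krt8, and is the type I gene that lies inside the type II cluster, 23697 bases from Krt8. It stood at 256, 242, 225 and 208 CPM in mutant libraries 1 to 4 and at 92.0, 113, 107 and 133 CPM in control libraries 1 to 4. The groups did not overlap, and the lowest mutant library was number 4 and the lowest control number 1, as for Krt8. Its log2 fold change was 1.06 ± 0.12 (SE), with adjusted p = 0.000687 in the edgeR test and an interval of the ratio from 1.75 to 2.50. Per kilobase of summed exon length, the ratio of Krt8 to Krt18 was 1.595, 1.65, 1.53 and 1.58 in mutant libraries 1 to 4 and 1.58, 1.80, 1.69 and 1.52 in control libraries 1 to 4. The ratio of this filament pair thus overlapped between the groups, at 1.59 ± 0.051 in mutant and 1.65 ± 0.123 in control libraries (SD, n = 4 each).

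Krt19 (ENSMUSG00000020911, chromosome 11, 100140810 to 100148665, minus strand) encodes the short, tailless type I keratin of ducts and airways. It stood at 481, 445, 394 and 352 CPM in mutant libraries 1 to 4 and at 139, 213, 188 and 242 CPM in control libraries 1 to 4. Mutant 4, the lowest mutant, lay above control 4, the highest control. The means were 418 ± 56.7 CPM in mutant and 196 ± 43.7 CPM in control libraries (SD, n = 4 each), a log2 fold change of 1.10 ± 0.17 (SE) with adjusted p = 0.00427 in the edgeR test and an interval of the ratio from 1.65 to 2.77. Krt19 lies on another chromosome than Krt8 and Krt18, beside the basal keratin Krt15, 4881 bases away, which did not pass the test.

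Krt7 (ENSMUSG00000023039, chromosome 15, 101411043 to 101430313, plus strand) encodes a type II simple keratin of lung, urinary tract and gland ducts. It stood at 608, 576, 567 and 557 CPM in mutant libraries 1 to 4 and at 379, 452, 426 and 475 CPM in control libraries 1 to 4. The groups did not overlap, but the step between them was smaller than for the other 3 simple keratins. The log2 fold change was 0.42 ± 0.08 (SE), with adjusted p = 0.0174 in the edgeR test, and the interval of the ratio, 1.17 to 1.52, lay below those of Krt8, Krt18 and Krt19. This call was lost without mutant 1 (adjusted p of 0.0621) and without mutant 2 (0.0523), and on a scale set by 12 pan-epithelial genes (log2 fold change 0.12, adjusted p of 0.247); over 20 alternatives the adjusted p of edgeR, DESeq2 or limma ran from 5.72e-05 to 0.247. Krt7 overlaps the predicted gene Gm671 on the opposite strand over 1269 bases, which averaged 2.86 CPM in mutant and 2.94 CPM in control libraries.

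**Figure D1:**
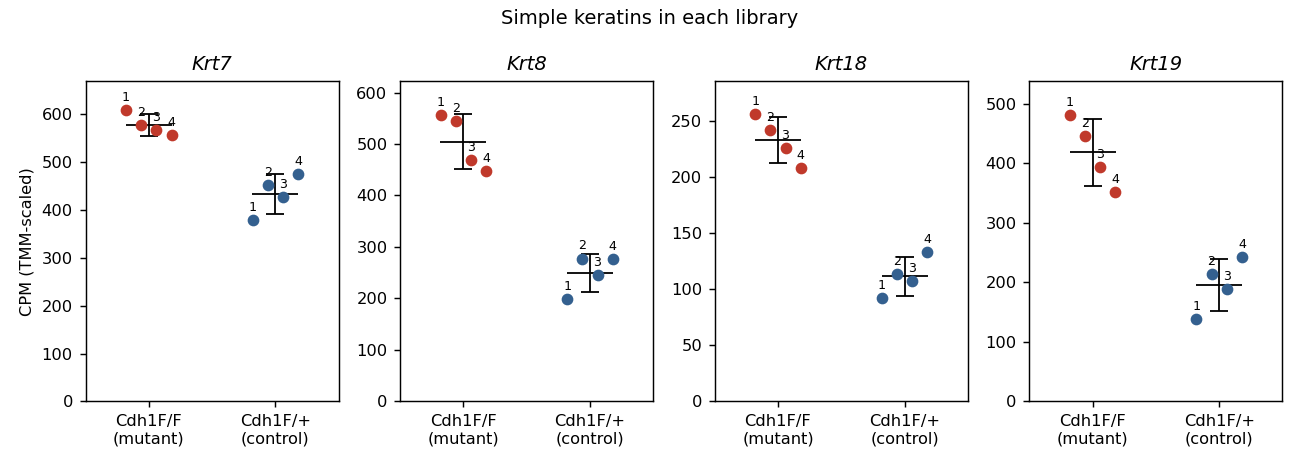
CPM on linear axes that start at 0 for Krt7, Krt8, Krt18 and Krt19 in the mutant (left in each panel) and control (right) libraries. Points are libraries numbered 1 to 4, and bars give the mean and SD. In all 4 panels every mutant library lies above every control, as for 9.75% of all genes tested, by the smallest ratio of means, 1.33, for Krt7.

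For all 4 simple keratins, control 1 was the lowest library, and mutant 1 the highest. Between genes, levels were compared per kilobase of summed exon length. On that scale Krt8 was the most abundant keratin, at 258 ± 27.5 CPM per kb in mutant and 127 ± 19.0 CPM per kb in control libraries (SD, n = 4 each). Krt19 followed at 225 ± 30.6 CPM per kb in mutant and 105 ± 23.6 in control libraries, Krt18 at 162 ± 14.4 in mutant and 77.5 ± 11.9 in control libraries, and Krt7 at 81.9 ± 3.12 in mutant and 61.4 ± 5.84 in control libraries. The ranges of Krt8 and Krt19 over libraries overlapped in both groups, and those of Krt19 and Krt18 and of Krt18 and Krt7 overlapped in the controls. Within every single library, however, the order on this scale was Krt8, Krt19, Krt18 and Krt7. The order of Krt8 and Krt19 in the mutant libraries, and of Krt18 and Krt7 in the controls, depends on the length used. Per kilobase of the longest coding transcript, an alternative added after the data were seen, Krt19 averaged 265 CPM per kb in mutant and 124 CPM per kb in control libraries. On that length Krt7 averaged 141 CPM per kb in mutant and 106 in control libraries, and Krt18 162 in mutant and 77.5 in control libraries.

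The 4 simple keratins together amounted to 727 ± 74.8 CPM per kb in mutant and 372 ± 59.3 CPM per kb in control libraries (SD, n = 4 each), a ratio of means of 1.96. They made up 93.1, 93.3, 93.6 and 92.5% of all keratin RNA per kilobase in mutant libraries 1 to 4 and 85.1, 87.6, 86.3 and 89.4% in control libraries 1 to 4. The share was higher in every mutant library than in any control. Among the 4 simple keratins, Krt7 alone ran the other way, with 10.5 ± 0.729% of all keratin RNA in mutant and 14.5 ± 0.740% in control libraries. The ratio of Krt7 to Krt8 CPM was 1.15 ± 0.089 in mutant and 1.75 ± 0.119 in control libraries, without overlap. With these weights, type II chains (Krt7 and Krt8) stood to type I chains (Krt18 and Krt19) at 0.879 ± 0.031 in mutant and 1.04 ± 0.077 in control libraries, also without overlap. These shares and ratios are descriptions and were not tested.

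**Figure D2:**
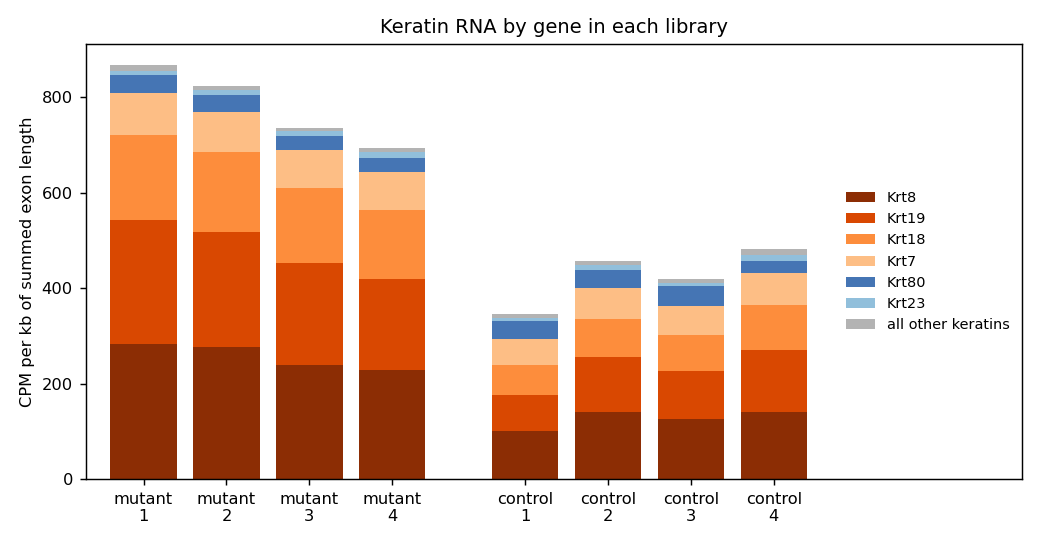
Keratin RNA in CPM per kilobase of summed exon length, stacked by gene, for mutant libraries 1 to 4 (left) and control libraries 1 to 4 (right). The summed height of the Krt8, Krt19, Krt18 and Krt7 segments lies between 642 and 808 in mutant and between 294 and 432 in control libraries, while the Krt80 segment does not grow with it.

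Several general epithelial genes were also higher in the mutant libraries. Of 12 pan-epithelial genes, 5 rose, where 5.45% of all genes did: Epcam (1.53-fold), the protease gene St14 (1.83-fold), its inhibitors Spint1 (1.33-fold) and Spint2 (1.29-fold), and the splicing factor gene Esrp1 (1.39-fold). Without mutant 1, 2 or 4, 3 of the 12 were called, where 515, 534 and 576 genes in all were higher, against 924 with every library. By edgeR 0 of the 12 were called lower, with 1 at an unadjusted p under 0.05, 1 by DESeq2 and 0 by limma-voom. Prss8, a membrane protease gene, averaged 78.3 ± 3.67 CPM in mutant and 103.9 ± 18.1 CPM in control libraries, every mutant below every control, with an adjusted p of 0.0636 by edgeR. The range of the summed level of these 12 genes was 1378 to 1446 CPM in mutant and 1069 to 1258 CPM in control libraries. Relative to Epcam, Krt8 stood at 5.04, 5.14, 4.79 and 4.67 in mutant libraries 1 to 4 and at 3.43, 3.77, 3.71 and 3.92 in control libraries 1 to 4, a ratio of CPM values that can be compared between libraries only. The ratio to Epcam was 2.27 ± 0.067 in mutant and 1.66 ± 0.159 in control libraries for Krt18, and 4.06 ± 0.296 in mutant and 2.90 ± 0.422 in control libraries for Krt19 (SD, n = 4 each). All 3 ratios were higher in every mutant library than in any control. The ratio of Krt7 to Epcam was lower in every mutant library than in any control, at 5.64 ± 0.189 in mutant and 6.47 ± 0.254 in control libraries. Epcam was itself called higher, while Cdh1 was not called (adjusted p of 0.65 by edgeR). Cdh1 is the floxed gene, however, so its count may itself depend on the genotype. Both genes are among the 12 pan-epithelial genes. Relative to Cdh1, Krt7 went the other way, at 1.43 ± 0.044 in mutant and 1.13 ± 0.068 in control libraries, without overlap. The direction for Krt7 thus depended on the gene it was set against, and neither gene is a neutral reference.

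Scaling the libraries to the 12 pan-epithelial genes moved the median log2 fold change of all genes by -0.30. On that scale Krt8 (1.65-fold), Krt18 (1.71-fold) and Krt19 (1.75-fold) were still called higher, with adjusted p of 0.00164, 0.00116 and 0.00271 by edgeR's quasi-likelihood test, within ranges over the alternatives that reached at most 0.0136, 0.0085 and 0.0408. Krt7, at 1.09-fold, was not called on it.

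**Figure D3:**
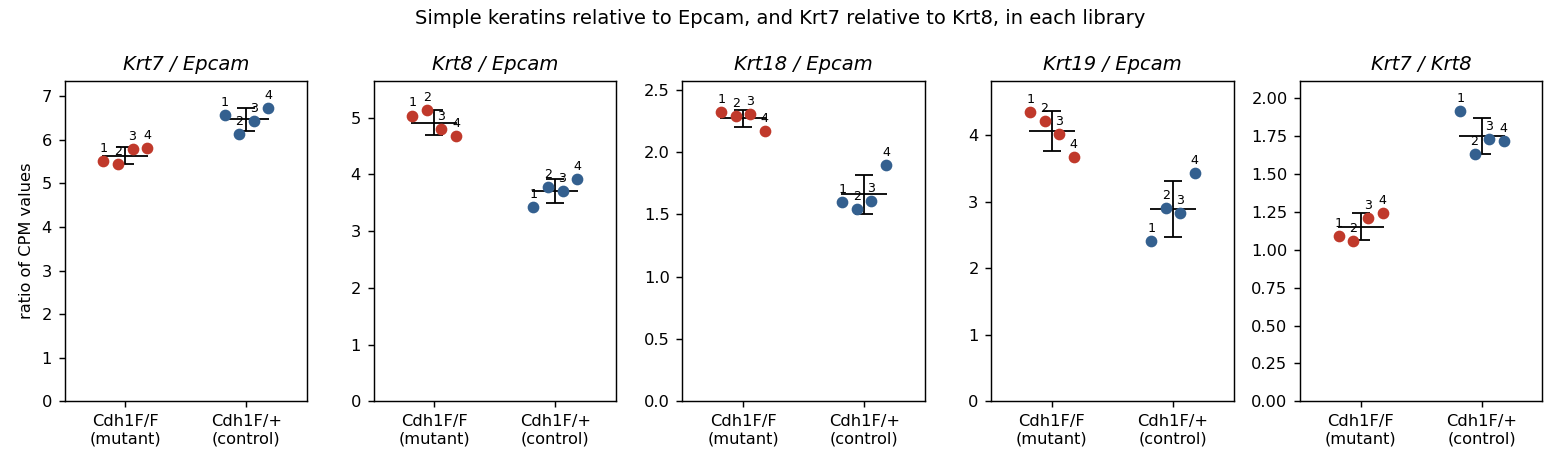
Ratio of the CPM of each simple keratin to that of Epcam, and of Krt7 to Krt8, in the mutant (left in each panel) and control (right) libraries, on linear axes from 0. Points are libraries 1 to 4, with mean and SD. Krt8, Krt18 and Krt19 gained on Epcam in the mutant libraries, while Krt7 stood at 5.64 in mutant and 6.47 in control libraries relative to Epcam.

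The basal keratins together reached 3.01 ± 1.94 CPM per kb in mutant and 3.54 ± 1.88 CPM per kb in control libraries (SD, n = 4 each), or 0.375 ± 0.205% of all keratin RNA in mutant and 0.820 ± 0.352% in control libraries. Their raw counts summed to 187, 74, 61 and 80 in mutant libraries 1 to 4 and to 109, 68, 80 and 230 in control libraries 1 to 4. Mutant 1 and control 4 thus held more basal keratin RNA than the other libraries of their groups.

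Krt15 (ENSMUSG00000054146, chromosome 11, 100131758 to 100135928, minus strand), a type I keratin of basal cells, was the most abundant of the 4. It stood at 6.55, 2.72, 1.79 and 2.44 CPM in mutant libraries 1 to 4 and at 3.61, 2.68, 2.11 and 8.34 CPM in control libraries 1 to 4. The groups overlapped over most of their range. The log2 fold change was -0.33 ± 0.51 (SE), with adjusted p = 0.721 in the edgeR test, and the interval of the ratio, 0.363 to 1.75, spans changes in either direction. Without control 4 the sign turned, to 0.25.

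Krt5 (ENSMUSG00000061527, chromosome 15, 101707070 to 101712898, minus strand), the type II partner of Krt14 in basal cells, stood at 2.36, 0.708, 0.839 and 0.633 CPM in mutant libraries 1 to 4 and at 1.35, 1.51, 1.58 and 2.92 CPM in control libraries 1 to 4. Mutants 2 to 4 lay below all controls, and mutant 1 lay above 3 of them. The means were 1.13 ± 0.819 CPM in mutant and 1.84 ± 0.724 CPM in control libraries (SD, n = 4 each), a log2 fold change of -0.72 ± 0.45 (SE) with adjusted p = 0.342 in the edgeR test and an interval of the ratio from 0.303 to 1.22. Over the alternatives the log2 fold change of Krt5 ran from -1.34 to -0.40 and the adjusted p from 0.0754 to 0.575.

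Krt14 and Krt17 did not pass the filter on low counts. Krt14 (ENSMUSG00000045545, chromosome 11, 100203162 to 100207548), the type I partner of Krt5, had 12, 4, 3 and 3 counts in mutant libraries 1 to 4 and 2, 6, 12 and 6 counts in control libraries 1 to 4. These sum to 22 counts in mutant and 26 in control libraries, with a ratio of 0.803 and a counting interval of 0.434 to 1.47. Krt14 thus lay close to the floor in both groups, with 12 counts in its highest library of each. Krt17 (ENSMUSG00000035557, chromosome 11, 100256217 to 100261029), the wound keratin, had 20, 7, 11 and 9 counts in mutant libraries 1 to 4 and 4, 1, 5 and 4 counts in control libraries 1 to 4. It was the basal keratin whose groups did not overlap, at 0.381 to 1.15 CPM in mutant and 0.0688 to 0.294 CPM in control libraries, where 9.75% of all tested genes were higher in every mutant library than in any control. The counts of Krt17 sum to 47 in mutant and 14 in control libraries, a ratio of 3.19 with a counting interval of 1.72 to 6.27. Without the filter, edgeR's quasi-likelihood test gave Krt17 a log2 fold change of 1.67, an unadjusted p of 0.0029 and an adjusted p of 0.0574.

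**Figure D4:**
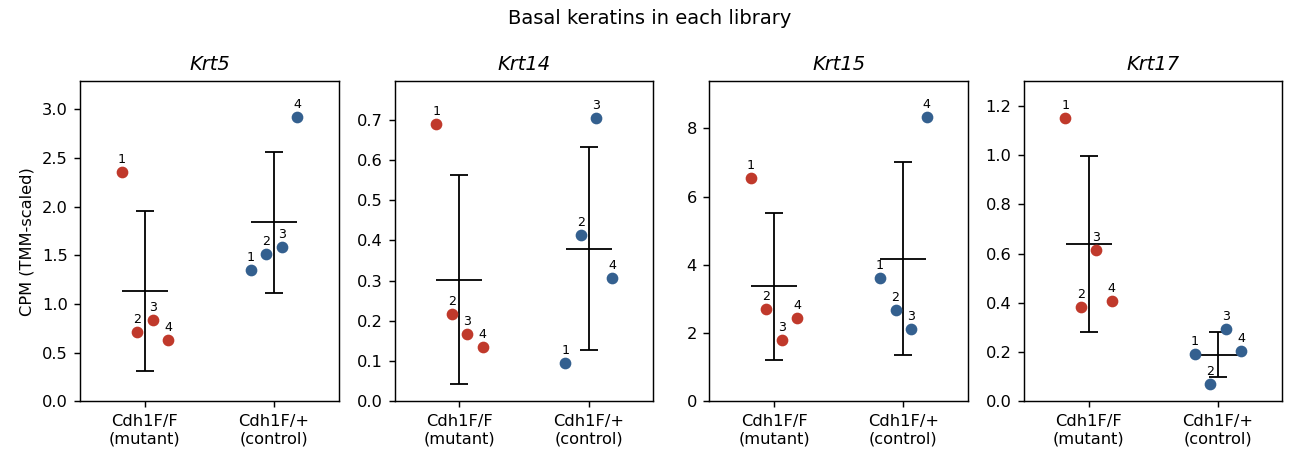
CPM on linear axes that start at 0 for Krt5, Krt14, Krt15 and Krt17 in the mutant (left in each panel) and control (right) libraries. Points are libraries numbered 1 to 4, with mean and SD. Mutant 1 stands above the other mutants in all 4 panels, control 4 above the other controls for Krt5 and Krt15, and the groups are apart for Krt17 alone.

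Genes of basal cells other than keratins gave no call. Of 9 tested, edgeR's quasi-likelihood test called 0 in either direction, with 0 at an unadjusted p under 0.05 and 0 by DESeq2 or limma-voom. Trp63, the master regulator of basal cells, averaged 1.13 ± 0.554 CPM in mutant and 1.07 ± 0.466 CPM in control libraries (SD, n = 4 each). The neurotrophin receptor gene Ngfr averaged 1.53 ± 0.843 CPM in mutant and 0.957 ± 0.533 CPM in control libraries, and the water channel gene Aqp3 2.56 ± 1.11 CPM in mutant and 2.88 ± 1.17 CPM in control libraries. Of the 9 genes, 4 were highest among the mutants in mutant 1, 6 were highest among the controls in control 4, and 3 (Trp63, Ngfr and Aqp3) did both, at 1.90, 2.76 and 4.14 CPM in mutant 1 and 1.59, 1.43 and 4.55 CPM in control 4. Mutant 1 and control 4 are the libraries with the most Krt5 and Krt15. Other genes of the list did not follow: Col17a1 was lowest among the mutants in mutant 1 (5.52 CPM) and Snai2 lowest among the controls in control 4 (9.36 CPM). Their part in the keratin values was not tested. Bcam and Lamb3, the genes with the highest CPM of this list at 952 ± 15.04 and 185 ± 9.11 CPM in mutant and 934 ± 112 and 174 ± 24.1 CPM in control libraries, are also made by other lung cells.

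Of 46 further keratin genes, 8 had enough counts to be tested, 29 never exceeded 3 counts in any library and 10 of these had 0 counts throughout. Of the 8 tested, 3 rose, where 5.45% of all genes did (2.36% were lower), and 0 were lower by edgeR, DESeq2 or limma-voom, with 1 lower at an unadjusted p under 0.05. All 3 that rose were far below the simple keratins in level. Krt4 and Krt20 passed the filter on low counts through their mutant libraries, where they are high. The share of 3 in 8 is therefore not to be set against 5.45%. Krt4, a type II keratin of mucosal stratified epithelia, reached 1.28 ± 0.356 CPM in mutant and 0.262 ± 0.177 CPM in control libraries (SD, n = 4 each; 4.76-fold, adjusted p = 0.0111 in the edgeR test). Krt20, a type I keratin of gut and of the bladder surface, had 56 counts over the mutant and 4 over the control libraries, a ratio of 13.3 with a counting interval of 4.91 to 50.5 and an adjusted p of 0.00139 by edgeR. Krt87, whose span lies 724 bases from that of Krt7, reached 2.86 ± 0.359 CPM in mutant and 1.21 ± 0.369 CPM in control libraries (2.33-fold, adjusted p of 0.0127 by edgeR). Without controls 2 and 3, Krt20 was still called, and Krt4 and Krt87 were not (adjusted p of 0.0708 and 0.0552 by edgeR, within ranges over the alternatives of 0.000489 to 0.0708 and 0.000421 to 0.0552).

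Of the 5 further keratins with the highest levels per kilobase, Krt87 was called higher, as above, and Krt80, Krt23, Krt79 and Krt10 were not called. Krt80, a type II keratin found in many epithelia, stood at 249, 237, 186 and 194 CPM in mutant libraries 1 to 4 and at 247, 251, 268 and 160 CPM in control libraries 1 to 4. The groups overlapped, with adjusted p = 0.747 in the edgeR test, and the share of Krt80 in all keratin RNA per kilobase was 4.33 ± 0.257% in mutant and 8.74 ± 2.58% in control libraries. Krt23 averaged 15.2 ± 1.93 CPM in mutant and 13.8 ± 5.01 CPM in control libraries, and Krt79 9.37 ± 3.41 CPM in mutant and 14.1 ± 2.25 CPM in control libraries. Krt10, the keratin of differentiated epidermis, averaged 2.43 ± 0.454 CPM in mutant and 2.08 ± 0.446 CPM in control libraries. On the scale of the 12 pan-epithelial genes, Krt79 and Krt222 were called lower in mutant libraries (adjusted p of 0.00839 and 0.0265 by edgeR), with log2 fold changes of -0.89 and -0.89. That scale called 7031 of all 16964 genes tested lower.

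Of 16 tested genes for proteins that bind or anchor keratin filaments, 3 rose, where 5.45% of all genes did, and 0 fell, with 0 lower at an unadjusted p under 0.05 and 0 by DESeq2 or limma-voom. The largest step was in Eppk1, which encodes epiplakin, a keratin-binding plakin. It stood at 22.6, 27.1, 23.0 and 19.4 CPM in mutant libraries 1 to 4 and at 13.3, 12.2, 11.3 and 12.6 CPM in control libraries 1 to 4 (1.86-fold, adjusted p = 0.00148 in the edgeR test), without overlap. The desmosomal plakophilin gene Pkp3 was 1.34-fold and Tchp, which encodes the keratin-binding protein trichoplein, 1.36-fold higher (adjusted p of 0.026 and 0.0228 by edgeR). Eppk1 kept its call in all 20 alternatives, whereas 1 of the 16 was called without control 2 or 3 or without mutant 1, 2 or 4, and 5 were called without control 4. Over all genes, 1206 were higher and 749 lower without control 4, against 924 and 401 with every library. Jup, which encodes plakoglobin, and Plec, which encodes plectin, had the highest CPM, at 468 ± 33.6 and 426 ± 52.1 CPM in mutant and 433 ± 114 and 295 ± 167 CPM in control libraries, and did not pass the test. Desmoplakin (Dsp), the main anchor of keratin at desmosomes, averaged 113 ± 6.54 CPM in mutant and 106 ± 15.4 CPM in control libraries, with an adjusted p of 0.635. On the scale of the pan-epithelial genes Eppk1 alone of the 16 was called higher (1.51-fold), and Dst, Itga6, Cd151, Ppl and Pkp2 were called lower. That scale called 7031 of all 16964 genes tested lower and 618 higher, so the lower calls are not particular to these genes.

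**Figure D5:**
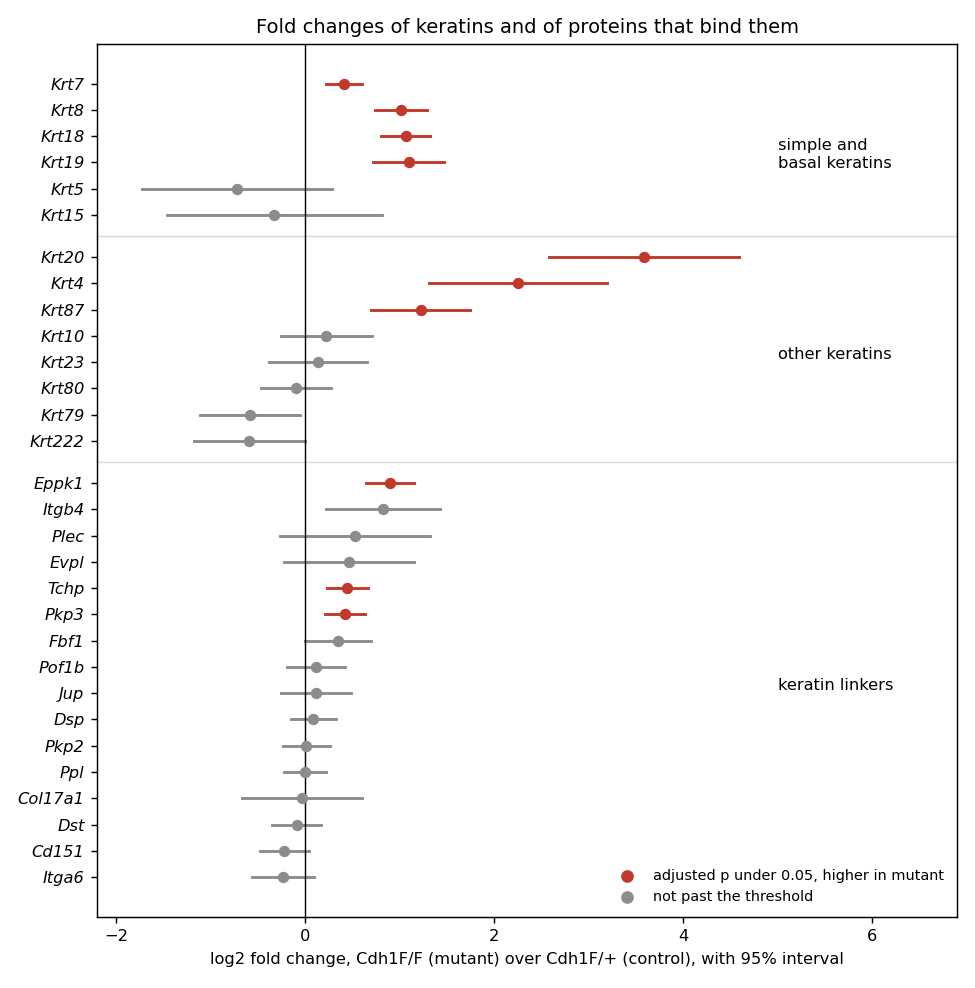
Log2 fold change of mutant over control with its 95% interval for the 6 tested simple and basal keratins, the 8 other tested keratins and the 16 tested keratin-binding genes. Red marks an adjusted p under 0.05 by edgeR. Krt8, Krt18 and Krt19 lie between 1.02 and 1.10, Krt7 at 0.42, Eppk1 at 0.89, and the intervals of Krt5 and Krt15 cross 0.

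Among 10 tested genes of other intermediate filaments, 2 fell, where 2.36% of all genes did. These were the muscle filament genes Synm (1.499-fold lower, adjusted p = 0.0151 in the edgeR test) and Des (1.37-fold lower, adjusted p of 0.0216). Vim, the vimentin gene of mesenchymal cells, averaged 806 ± 55.1 CPM in mutant and 857 ± 112 CPM in control libraries (SD, n = 4 each), with an adjusted p of 0.626. Without mutant 2, 0 of these filament genes were called, and without control 3 or mutant 1, 3 or 4, 1 was. Of 12 tested genes for factors known to act on keratin or epithelial genes, 2 rose, where 5.45% of all genes did. Of these 12 genes, 5 were called without control 1, 4 without control 4, and 1 without mutant 1, 2 or 4. Over all genes, 1517 were higher and 1117 lower without control 1, against 924 and 401 with every library. Elf3, an epithelial ETS factor, stood at 80.4, 66.4, 65.7 and 71.3 CPM in mutant libraries 1 to 4 and at 24.6, 25.8, 22.01 and 29.2 CPM in control libraries 1 to 4 (2.79-fold, adjusted p of 4.89e-05 by edgeR). The grainyhead factor gene Grhl3 reached 2.93 ± 0.457 CPM in mutant and 1.13 ± 0.490 CPM in control libraries (2.60-fold, adjusted p of 0.0215 by edgeR). Jun and Klf4, at 289 ± 33.5 and 228 ± 53.4 CPM in mutant and 324 ± 33.2 and 200 ± 58.4 CPM in control libraries, did not pass the test.

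Marker lists of the cell types that could carry simple keratin RNA moved as follows, and their part in the keratin values was not tested. Of all genes tested, 5.45% were higher and 2.36% lower, and each list count is to be read against these shares. Of 14 genes of transitional epithelium, 10 rose, among them Cldn4 (12.8-fold), Clu (10.3-fold) and Areg (8.14-fold), with a summed level of 5256 to 6109 CPM in mutant and 1580 to 1809 CPM in control libraries. Of 5 goblet cell genes 5 rose, with summed levels of 569.9 to 943 CPM in mutant and 121 to 221 CPM in control libraries. Among these 5, Foxa3 passed the filter on low counts through its mutant libraries, where it is high. Of 7 ciliated cell genes 5 rose, with 709.6 to 924 CPM in mutant and 523 to 703 CPM in control libraries. Of 6 club cell genes 4 fell, with summed levels of 8496 to 10709 CPM in mutant and 25056 to 27502 CPM in control libraries. Between the groups, the simple keratins thus moved with the transitional, goblet and ciliated lists and against the club cell list. Pan-epithelial genes rose too (5 of 12), and Tppp3, the ciliated gene with the highest CPM, did not (0.95-fold). Within the mutants the order differed from gene to gene. Mutant 4 was lowest for every simple keratin but highest for the ciliated genes Dynlrb2 and Rsph1 (66.1 and 58.0 CPM), though not for Foxj1. Of the transitional genes named, Clu and Cldn4 were lowest in mutant 4 (2826 and 74.3 CPM) and Areg was highest there (45.7 CPM). The goblet gene Muc5b was lowest in mutant 4 (506 CPM), and Agr2 in mutant 3 (33.1 CPM). The alveolar lists overlapped between the groups in summed level: the 7 type II genes reached 24314 to 30507 CPM in mutant and 22176 to 31777 CPM in control libraries, and the 7 type I genes 5124 to 5183 CPM in mutant and 5118 to 6060.2 CPM in control libraries, with 1 of these, Rtkn2, lower.

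Mesothelial cells, which also make simple keratins, were represented by 8 genes that summed to 382 to 420 CPM in mutant and 266 to 646 CPM in control libraries. By edgeR's quasi-likelihood test 0 of the 8 were called, with 1 lower at an unadjusted p under 0.05 and 0 by DESeq2 or limma-voom. Of 8 endothelial genes 4 fell, where 2.36% of all genes did, with summed levels of 3824 to 4078 CPM in mutant and 4478 to 5703 CPM in control libraries. Of 8 immune genes 2 rose, where 5.45% of all genes did, with 5163 to 7558 CPM in mutant and 5345 to 7329 CPM in control libraries, and of 6 mesenchymal genes 1 rose, with 2184 to 2732 CPM in mutant and 1693 to 2462 CPM in control libraries. Of 4 tested neuroendocrine genes 1 rose, Calca, with a summed level of all 6 of 9.2 to 12.1 CPM in mutant and 7.98 to 9.74 CPM in control libraries. Calls in these lists depended on single libraries, as did calls over all genes. With 1 library left out, 515 to 1517 genes in all were higher and 146 to 1117 lower, against 924 and 401 with every library. Without control 1, which gave the 1517 and 1117, 7 endothelial and 4 mesothelial genes were called. Without control 2 or mutant 1, 2 or 4, 0 endothelial genes were, and 1 was without control 3 or mutant 3. The neuroendocrine call was lost without control 2 or 3 or mutant 1, 3 or 4, the mesenchymal call without control 2 or 3 or any mutant library, and the type I call without mutant 1 or 2; 1 immune gene was called without control 2 or mutant 1 or 4.

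Across the 8 libraries, the gene whose log2 CPM was most like that of Krt8 among 13317 genes compared was Epcam (Pearson r = 0.998). It was followed by Tmc5 (0.991), Muc5b (0.991), Vtcn1 (0.990) and Cdhr1 (0.990). The 8 points form 2 groups and share library and scaling, so the values describe likeness only. The same measure gave Ndst2 (0.941), Kars (0.928), Fer (0.921), Dcaf5 (0.903) and Svep1 (0.885) for Krt5, and Fam102a (0.944), Emd (0.942), Ccdc159 (0.917), Parva (0.915) and Dcaf5 (0.893) for Krt15, which rest on 217 counts of Krt5 and 563 of Krt15 over all libraries. The highest of 13317 values over 8 points can be this large without any relation, and no chance level was computed. These genes are therefore not to be read as partners of Krt5 or Krt15. Dcaf5, named for both, hardly varied, at 53.9 to 57.9 CPM in mutant and 54.6 to 58.1 CPM in control libraries.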

How the data were processed

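Raw counts of read pairs for each gene were deposited for the 8 libraries, and all were used. Counting was done by the authors in featureCounts 1.6.2 on the GENCODE M25 annotation of GRCm38 without strand, leaving out reads that map to several places or to several genes, per the file headers. Reads that near-identical keratins share are therefore lost. Per the labels' protocols, both a stranded and an unstranded kit were named, and the kit of each library was not stated. STAR, Bowtie2 and Cufflinks are named without roles, per the submitters' processing notes. Symbols came from GENCODE M21 (99.53% of 55401 identifiers matched), promoters from RefSeq.

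The edgeR 4.0.16 quasi-likelihood test (robust, group only, R 4.3.3) was run on TMM-scaled counts of the genes that filterByExpr kept (at least 10 counts, and 15 in total). P-values were adjusted by Benjamini-Hochberg over these genes and set against 0.05. The procedure was tested on simulated data. Alternatives used other scalings and filters, DESeq2 1.42.0, limma-voom (limma 3.58.1), a replicate block, a GC trend, and subsets of libraries. Pairs of libraries within a group had a chi-square of 4.55 to 41.29 per gene, so none looked like 1 library deposited a second time; this does not show that they are separate animals.

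The keratins and the gene lists were chosen with earlier results of these data known. Named genes were the 8 keratins, other keratins that were called or among the 5 highest per kilobase, up to 4 called genes and the 2 highest in CPM of each list, and a few context genes. Dsp, Ngfr, Aqp3, Col17a1, Snai2, Prss8, Krt222, Sbsn and the linkers called on the pan-epithelial scale fall outside this rule and were named after their values were seen.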

Additional observations from a re-analysis of the deposited data

Results flagged for a closer look

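Among 64 groups of 4 libraries examined for a library far from the other 3, 8 were marked, where chance marks about 1 in 20. Of the 8, 7 concern basal keratins. These 7 overlap, because the sums, the share and the raw counts are formed from the counts of the same genes. The marks are therefore not independent, and their number cannot be set against the chance rate. Krt5 stood at 2.36 CPM in mutant 1 and 2.92 CPM in control 4, each apart from the rest of its group, and Krt14 at 0.690 CPM in mutant 1. Summed basal keratins reached 5.91 CPM per kb in mutant 1 and 6.35 CPM per kb in control 4, and in mutant 1 they made up 0.682% of all keratin RNA, from 187 raw counts. The eighth is the ratio of Krt7 to Cdh1 CPM, which was 1.498 in mutant 1, against 1.41 to 1.42 in the other mutants.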

How the results depend on the processing

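Krt8, Krt18 and Krt19 stayed higher and past the threshold in all 20 alternatives, with log2 fold changes of 0.73 to 1.09, 0.77 to 1.16 and 0.81 to 1.21. Krt7 kept its direction in all 20 and its call in 16. Its log2 fold change was 0.12 (adjusted p of 0.247 by edgeR) when libraries were scaled to pan-epithelial genes and 0.39 (0.0501 by edgeR) with the GC trend removed and a replicate block, and 0.36 to 0.46 with 1 library left out; the cause was not tested. Krt15 turned to 0.25 without control 4 and to 0.49 without controls 1 and 4, and ran from -0.86 to 0.25 with 1 library left out. Krt5 ran from -1.34 to -0.40 in the same way. Krt14 and Krt17 could not be fitted with the filter on low counts, so their alternatives were not run apart from the fit without a filter, in which Krt14 had a log2 fold change of -0.31 (adjusted p of 0.827 by edgeR).

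The log2 ratio of summed simple keratins was 0.97, and 0.68 on the pan-epithelial scale. Over all genes, 924 were higher and 401 lower. With 1 library left out these counts ran from 515 to 1517 and from 146 to 1117, and without controls 1 and 4 they were 3750 and 3338. Lower genes numbered 7031 on the pan-epithelial scale, 939 by DESeq2 and 223 without controls 2 and 3. Other keratins called numbered 3, against 5 on the pan-epithelial scale, 1 with a minimum of 1 CPM in 4 libraries, which leaves fewer genes tested, and 1 without controls 2 and 3. Keratin-binding genes called numbered 3, against 6 on the pan-epithelial scale, 1 with the GC trend removed and a replicate block, 1 to 5 with 1 library left out, 1 without controls 2 and 3 and 10 without controls 1 and 4. Basal cell genes called numbered 0, and 1 on the pan-epithelial scale and 1 without controls 1 and 4. Genes called over the cell type, transitional, squamous and pan-epithelial lists together numbered 41, and 63 without controls 1 and 4.

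The replicate numbers did not pair the samples: same-numbered libraries had correlations of 0.01, 0.13, -0.12 and 0.13. With the replicate block 865 genes were higher and 371 lower, and Krt7 kept its call (0.42, adjusted p of 0.0486 by edgeR). Depth limits the basal keratins: Krt14 and Krt17 had 1 to 20 counts per library.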

Other observations

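Genes of squamous and cornified epithelium, which stratified keratins accompany in skin, did not move as 1 group. Of 11 such genes, 5 had enough counts to be tested, 2 rose and 1 fell by edgeR's quasi-likelihood test, where 5.45% of all genes were higher and 2.36% lower. Sprr1a passed the filter on low counts through its mutant libraries and Tgm3 through its controls. These counts are therefore not to be set against those shares. Sprr1a, a cornified envelope protein, averaged 10.5 ± 4.27 CPM in mutant and 0.546 ± 0.292 CPM in control libraries, and the crosslinking enzyme gene Tgm1 18.5 ± 3.54 CPM in mutant and 4.93 ± 1.56 CPM in control libraries (SD, n = 4 each). Tgm3, another transglutaminase of hair and skin, averaged 0.307 ± 0.148 CPM in mutant and 1.35 ± 0.338 CPM in control libraries. Scel, which had the highest CPM of the list, and Sbsn averaged 41.5 ± 10.3 and 7.93 ± 0.948 CPM in mutant and 63.4 ± 9.18 and 9.10 ± 1.90 CPM in control libraries and did not pass the test. Sprr1b had 0 counts in all 8 libraries, which allows up to 3 counts in each.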
